A study of Mus musculus with 12 samples.

Results

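Keratins and markers of bile duct cells were followed in mouse liver after transfer of human apolipoprotein F (hApoF), a lipoprotein-bound protein, by adenovirus. Of 10 genes chosen by name, 9 were measured under a single symbol: Krt23, Krt8, Krt18, Krt19, Krt7, Epcam, Sox9, Pkhd1 and Cldn7. They are 9 of 22180 genes and hold 10 of 23521 probe sets that carry 1 gene symbol, since Krt18 has 2 probe sets and every other measured member has 1. Spp1 (osteopontin) was not analysed here. Where a gene had several probe sets, its brightest over all 12 arrays stood for it, so the probe sets were selected on their mean level over the arrays, which is no finding. The gene names were chosen by cell type and with the measured hApoF and GFP values known.

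The hApoF group had 6 liver samples of male C57BL6/J mice, taken 4 days after an Ad5 virus carrying hApoF was given by tail vein. The GFP group had 6 liver samples of the same strain, sex and age (8 to 10 weeks). These mice were given an Ad5 virus carrying green fluorescent protein, with the same interval. Mice of both groups were fasted for 6 h before death. Uninjected livers were not analysed here, the labels state neither the viral dose nor its promoter, and the transferred human gene was not checked on the array. Each sample was hybridised to 1 array, whose deposited values are on the log2 scale after robust multi-array averaging (RMA). Arrays are named by group and replicate number, hApoF 7 to 12 and GFP 1 to 6, and the numbers pair no samples. Since the labels do not tie every array to a separate mouse, the p-values cover only the spread among these samples, which may be technical.

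Keratins are the intermediate filament proteins of epithelial cells. A type I keratin pairs with a type II keratin to form a filament, and hepatocytes rely on a single pair, keratin 8 (type II) and keratin 18 (type I). Bile duct cells, which line the ducts that carry bile out of the liver, hold this pair and in addition keratins 7 and 19. They are also known for the transcription factor Sox9, the adhesion protein Epcam, the tight junction protein Cldn7 and fibrocystin, the ciliary protein encoded by Pkhd1. In whole liver they are a small minority, and in bulk RNA fewer cells of a type and less RNA per cell cannot be told apart.

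The arrays were of like brightness, with medians between 4.93 and 5.03. Lower quartiles were 3.74 to 3.80 on hApoF arrays and 3.66 to 3.72 on GFP arrays other than GFP 4, which stood at 3.80 and so resembled the hApoF arrays. As a gauge of dim signal, 1105 olfactory receptor genes, not known for liver expression, had a median level of 2.71 and a central 90% of 1.603 to 5.005. Mean levels of Krt23, Krt19, Epcam and Cldn7 (4 of the 9 members) lay inside that span, and those of the other 5 lay above it. Brightness depends on the probes, so this describes how dim a signal was and not how abundant a transcript was. Markers of hepatocytes were bright in both groups. Their list mean per array was 12.70 to 12.74 in hApoF livers and 12.60 to 12.69 in GFP livers. The groups thus narrowly did not overlap (lowest hApoF array 12.6972, highest GFP array 12.6905), with a difference of 0.07 between their means.

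One member, Krt23, was lower in hApoF livers, and the other 8 did not pass the test. The counts past an adjusted p of 0.05 were 0 higher and 1 lower among the 9 members, where 6.91% of all genes passed, 2.11% higher and 4.8% lower (limma, Benjamini-Hochberg adjustment over all genes). At an unadjusted p under 0.05 there were 3 higher and 2 lower members, against 21.3% of all genes. The groups did not overlap for 1 member, where 4.98% of all genes showed no overlap. The median log2 difference of the members, hApoF minus GFP, was 0.06, and that of all genes was 0.03. Because the names were chosen with results known, these counts and p-values describe the members and are no independent evidence about them.

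**Figure D1:**
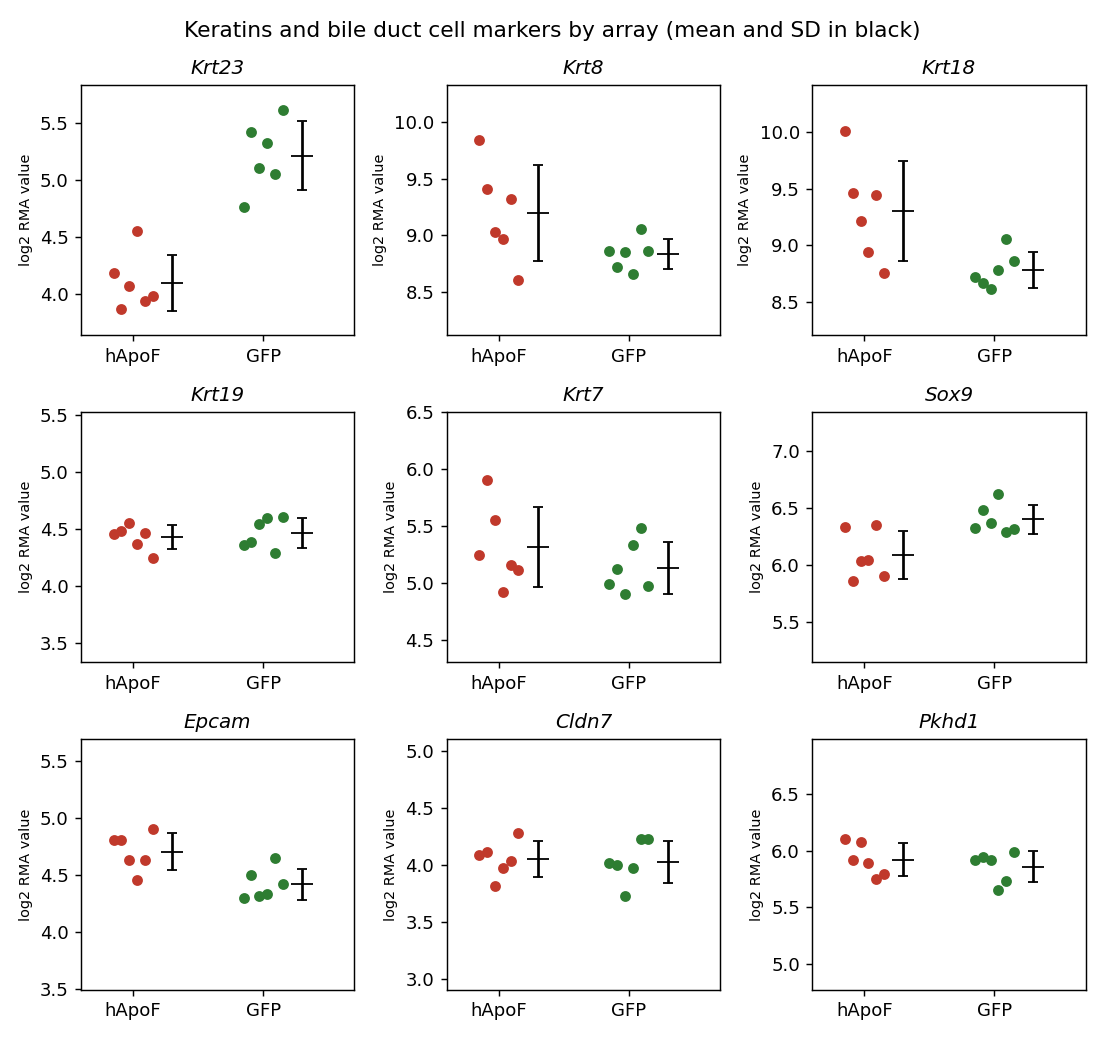
Log2 RMA values (vertical axes, each spanning 2.2 units) of the 9 measured members on 6 hApoF arrays (red) and 6 GFP arrays (green), with the group mean and SD in black. Krt23 is the gene whose groups do not overlap, and the hApoF arrays of Krt8 and Krt18 spread more widely than the GFP arrays.

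Krt23 encodes a type I keratin described in mice as a stress-inducible keratin of the injured liver. Its log2 values ran from 3.87 through a median of 4.03 to 4.55 in hApoF livers, against 4.76, 5.22 and 5.62 in GFP livers. All 6 hApoF arrays lay below all 6 GFP arrays. The group means were 4.10 ± 0.25 in hApoF livers and 5.22 ± 0.30 in GFP livers (SD, n = 6 each). It fell by 1.12 on the log2 scale, a 2.17-fold lower level (SE 0.14, 95% interval -1.42 to -0.82, limma adjusted p = 1.4e-04). An exact permutation test over the 924 assignments of arrays gave p = 0.0022, the smallest it can give. The call held in each of the 18 alternatives that kept the gene, with adjusted p between 4.5e-05 and 0.0014. The hApoF mean lay inside the olfactory receptor span and the GFP mean above it. Beside this fall, all 9 measured markers of cycling cells fell, and their mean level was 5.21 to 6.29 on hApoF arrays against 7.13 to 7.83 on GFP arrays. The part of cycling cells in the Krt23 difference was not tested.

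The upstream sequence of Krt23 is shown because it is the member that changed. It holds the 250 bases before the start of the gene in the RefSeq tables (GRCm38.p6, chr11:99493121-99493370, minus strand), printed 5′ to 3′.
Krt23 upstream: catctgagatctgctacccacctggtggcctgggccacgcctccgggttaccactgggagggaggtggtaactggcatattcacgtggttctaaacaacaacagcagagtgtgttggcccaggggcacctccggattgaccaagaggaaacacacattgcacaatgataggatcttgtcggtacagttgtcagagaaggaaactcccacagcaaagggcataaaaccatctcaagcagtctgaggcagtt
Both strands were searched for short motifs, and matches of different motifs could share bases. The TATA box TATAAA, found in 12.4% of 32851 upstream windows of that length, has no match in the Krt23 window. The GC box, written GGGCGG and present in 32.7% of windows, has none there either. Further searches without a match were for the CCAAT box (33.8% of windows), for an AP-1 site spelled TGANTCA (6.75% of windows) and for the cell cycle element TTTGAA (16.0% of windows). A nuclear receptor half-site, AGGTCA, stands in 14.02% of windows and not in this one. These results say only that the letters are not in that window.

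The 3 genes whose array values ran closest to those of Krt23 were Rps23rg1, Trp53cor1 and Kntc1. They were sought outside the members and without any symbol that begins with Gm or ends in Rik, a rule meant to leave out predicted genes. Likeness was the mean absolute difference over the 12 arrays, each gene taken as deviations from its own mean, and it includes the difference between the groups. It was 0.19 for Rps23rg1, 0.19 for Trp53cor1, a long noncoding RNA also known as lincRNA-p21, and 0.20 for Kntc1, a kinetochore protein. The log2 differences, hApoF minus GFP, were -1.28 for Rps23rg1, -0.87 for Trp53cor1 and -0.996 for Kntc1.

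Krt8 and Krt18, the keratin pair of hepatocytes, had higher means in hApoF livers, and neither passed the test. Krt8 had a lowest, median and highest value of 8.61, 9.18 and 9.84 in hApoF livers, against 8.66, 8.86 and 9.05 in GFP livers. Of the 6 hApoF arrays 3 lay above every GFP array and 1 below every GFP array. Krt8 differed by 0.36 on the log2 scale (SE 0.16, 95% interval 0.02 to 0.69, limma adjusted p = 0.20). Krt18 had values of 8.75, 9.33 and 10.01 in hApoF livers, against 8.61, 8.75 and 9.05 in GFP livers. On 4 hApoF arrays it lay above every GFP array, while the other two overlapped the GFP arrays. The Krt18 difference was 0.52 (SE 0.16, 95% interval 0.17 to 0.87, limma adjusted p = 0.073, exact permutation p = 0.019).

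The second probe set of Krt18, which was dimmer, had 6.82, 7.90 and 8.68 in hApoF livers, against 7.15, 7.29 and 7.65 in GFP livers. Its difference was 0.47 (95% interval -0.01 to 0.94, limma adjusted p = 0.25 over all single-gene probe sets, of which 6.7% passed). Both probe sets of the gene thus pointed the same way with overlapping intervals. Array hApoF 12 was the lowest hApoF array for Krt8 and for both Krt18 probe sets. Without it, Krt18 passed (difference 0.63, limma adjusted p = 0.025), as did its second probe set (0.66, adjusted p = 0.039), and Krt8 had a difference of 0.48 with an adjusted p of 0.052. Array hApoF 7 was the highest for all 3 probe sets, and leaving it out lowered the differences to 0.23 for Krt8 (limma adjusted p = 0.34), 0.38 for Krt18 (0.11) and 0.29 for its second probe set (0.44). Krt18 also passed without GFP 4 and hApoF 12 together (adjusted p = 0.033) and among genes above the median level only (adjusted p = 0.0395).

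The values of the pair spread more widely among the hApoF arrays than among the GFP arrays, a difference that was not tested. The SD of Krt8 was 0.42 in hApoF livers and 0.14 in GFP livers, and that of Krt18 was 0.44 in hApoF livers and 0.16 in GFP livers (n = 6 each). Both genes ranked the hApoF arrays in the same order, from hApoF 7 as the highest through 8, 11, 9 and 10 to hApoF 12 as the lowest. Within the hApoF group the values of Krt8 and Krt18 had a Pearson r of 0.98 (exact permutation p = 0.0028, 0.011 after adjustment) and a Spearman rho of 1 (exact permutation p = 0.0028). Without the 2 arrays farthest from the Krt8 median, r was 0.93 over the 4 left. In the GFP group r was 0.65 (exact permutation p = 0.17, adjusted 0.17) and rho 0.49 (exact permutation p = 0.36), and r was 0.36 without the 2 farthest arrays. Whether the relation differs between the groups was not tested.

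The 2 probe sets of Krt18 had r = 0.97 in hApoF livers (exact permutation p = 0.0056, rho 0.94 with exact permutation p = 0.017) and r = 0.93 in GFP livers (exact permutation p = 0.019, rho 0.89 with exact permutation p = 0.033). Without the 2 farthest arrays these r were 0.93 in hApoF livers and 0.73 in GFP livers. After adjustment over the 4 relations computed, chosen after the values were seen, the Pearson p were 0.011 in hApoF livers and 0.026 in GFP livers. On hApoF 12 the mean level of the cycling cell markers was the lowest of its group (5.21), and those of the macrophage (7.26) and endothelial (8.33) markers were the highest. On hApoF 7, the array with the highest Krt8 and Krt18, these means were 5.98, 6.78 and 8.03. On hApoF 10, next to the lowest for both genes, they were 6.29, 6.52 and 7.96. That cycling mean was the highest of the hApoF group, and its macrophage and endothelial means were the lowest. The part of these cells in the order of the arrays was not tested.

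**Figure D2:**
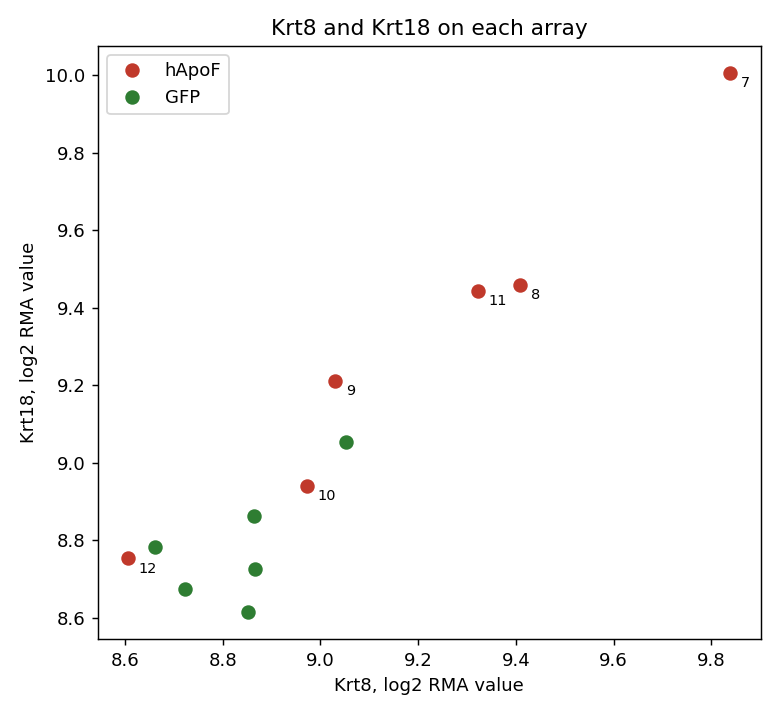
Log2 RMA values of Krt8 (horizontal) and Krt18 (vertical) on each array, hApoF in red with replicate numbers and GFP in green. The hApoF arrays run from 8.61 and 8.75 on hApoF 12 to 9.84 and 10.01 on hApoF 7, beyond the span of the GFP arrays at the upper end.

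Krt8 and Krt18 lie side by side on chromosome 15, with 0 protein-coding genes starting between them in the RefSeq table. Their upstream sequences are shown because the pair ranked the hApoF arrays alike. Each holds the 250 bases before the gene's start in GRCm38.p6, at chr15:102004343-102004592 (minus strand) for Krt8 and chr15:102027966-102028215 (plus strand) for Krt18, with AGGTCA, the nuclear receptor half-site, in capitals.
Krt8 upstream: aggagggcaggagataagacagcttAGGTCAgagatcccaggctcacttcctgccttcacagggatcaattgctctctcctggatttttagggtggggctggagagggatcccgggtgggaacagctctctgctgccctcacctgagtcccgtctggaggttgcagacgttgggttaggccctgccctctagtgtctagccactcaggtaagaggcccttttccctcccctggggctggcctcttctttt
Krt18 upstream: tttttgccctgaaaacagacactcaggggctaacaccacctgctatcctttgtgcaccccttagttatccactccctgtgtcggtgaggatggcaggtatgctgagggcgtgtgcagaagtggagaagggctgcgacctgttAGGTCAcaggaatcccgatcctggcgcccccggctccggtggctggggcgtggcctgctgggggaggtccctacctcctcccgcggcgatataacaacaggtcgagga
The longest runs that both windows share have 8 bases, among them TTAGGTCA, which begins 227 bases before the Krt8 start and 110 bases before the Krt18 start. The half-site inside it occurs in 14.02% of upstream windows, was picked after the sequences were read, and is a match of letters only. Neither window held any of the other motifs searched.

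The keratins that set bile duct cells apart did not pass. Krt19, a type I keratin without the usual tail, had values of 4.25, 4.46 and 4.55 in hApoF livers, against 4.29, 4.47 and 4.61 in GFP livers. Its difference was -0.04 (SE 0.08, 95% interval -0.20 to 0.13, limma adjusted p = 0.84). Krt7, the type II keratin of ducts, had 4.92, 5.202 and 5.90 in hApoF livers, against 4.90, 5.05 and 5.48 in GFP livers, a difference of 0.18 (95% interval -0.14 to 0.50, limma adjusted p = 0.53). Without hApoF 8, the array with the highest Krt7, the Krt7 difference was 0.06 (limma adjusted p = 0.82). The groups overlapped for both genes. Of 48 other keratin genes on the array 0 passed in limma, 5 had an unadjusted p under 0.05 and the median difference was 0.03. Those with the lowest p were Krt72 (0.26, limma adjusted p = 0.099) and Krt4 (-0.27, limma adjusted p = 0.13), which passed after a further quantile normalization (-0.32, limma adjusted p = 0.048). Over all genes 6.91% passed in limma and 21.3% had an unadjusted p under 0.05.

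Sox9 had a lower mean and Epcam a higher mean in hApoF livers, and neither passed. Sox9, the transcription factor of duct and progenitor cells, had values of 5.86, 6.04 and 6.35 in hApoF livers, against 6.28, 6.35 and 6.62 in GFP livers. On 4 hApoF arrays it lay below every GFP array, and hApoF 7 and hApoF 11 overlapped the GFP arrays. The Sox9 difference was -0.31 (SE 0.10, 95% interval -0.52 to -0.11, limma adjusted p = 0.068, exact permutation p = 0.024). It passed in 5 of 19 alternatives: without hApoF 7 (adjusted p = 0.044), without hApoF 11 (0.035), with arrays centred on their medians (0.042), with trend and robust settings (0.049) and among genes above the median level (0.031). Over all 19 the adjusted p ran from 0.031 to 0.16.

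Epcam, an epithelial adhesion protein, had values of 4.45, 4.72 and 4.90 in hApoF livers, against 4.30, 4.38 and 4.65 in GFP livers. Of the hApoF arrays 3 lay above every GFP array. The difference was 0.29 (SE 0.09, 95% interval 0.10 to 0.47, limma adjusted p = 0.065, exact permutation p = 0.015). Epcam passed without GFP 5 (adjusted p = 0.037) or hApoF 10 (0.032), and a further quantile normalization gave 0.14, with 0.032 to 0.14 as the range over 18 alternatives. Its mean level of 4.56 lay in the upper part of the olfactory receptor span, and the median difference of those 1105 genes was 0.06, with 14 higher and 2 lower. Over all genes 2.11% passed as higher and 4.8% as lower.

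Cldn7 and Pkhd1 had like means in both groups, and neither passed. Cldn7 had values of 3.82, 4.06 and 4.28 in hApoF livers, against 3.72, 4.00 and 4.22 in GFP livers, and a difference of 0.02 (95% interval -0.18 to 0.23, limma adjusted p = 0.91). Pkhd1 had 5.75, 5.91 and 6.10 in hApoF livers, against 5.65, 5.92 and 5.99 in GFP livers, and a difference of 0.06 (95% interval -0.12 to 0.24, limma adjusted p = 0.73). Leaving out 1 array gave a Pkhd1 difference of 0.02 (without GFP 4) to 0.10 (without hApoF 11), and 0.03 without hApoF 7. For Krt19, Pkhd1 and Cldn7 the widest bound of the 3 intervals was 0.24 on the log2 scale.

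**Figure D3:**
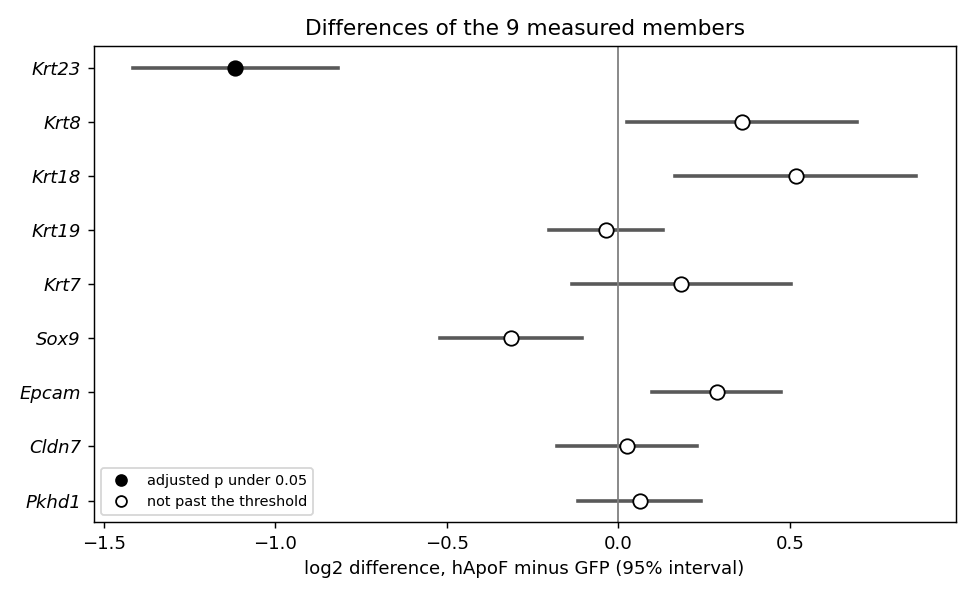
Log2 difference, hApoF minus GFP (horizontal), of the 9 measured members with its 95% interval. The filled point, Krt23 at -1.12, passed the adjusted threshold, and the 8 open points did not.

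Taking Krt19, Krt7, Epcam, Sox9, Pkhd1 and Cldn7 together as the measured bile duct markers (6 of 7), 0 passed in limma and 2 had an unadjusted p under 0.05, 1 higher and 1 lower. Their mean level was 4.94 to 5.18 on hApoF arrays and 4.96 to 5.11 on GFP arrays, so the groups overlapped. Of 26 further bile duct cell markers 22 were measured, 0 passed in limma and 3 had an unadjusted p under 0.05. Their median difference was 0.12, against 0.03 for all genes. Their mean level was 5.70 to 5.89 on hApoF arrays and 5.68 to 5.73 on GFP arrays. On hApoF 7, 8, 9 and 12 it lay above every GFP array, though on hApoF 9 only barely (5.7305 against 5.7297 on GFP 3). The lowest p in that list were those of Wfdc2, a secreted epithelial protein (-0.26, limma adjusted p = 0.13), and Cftr, the chloride channel of duct cells (0.29, limma adjusted p = 0.19). Over all genes 6.91% passed in limma and 21.3% had an unadjusted p under 0.05.

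Of 15 genes of the Notch and Hippo pathways, which take part in the choice between hepatocyte and bile duct fate, 1 fell and 0 rose. Notch1, a receptor, had values of 7.04, 7.28 and 7.36 in hApoF livers, against 7.57, 7.80 and 7.99 in GFP livers, with no overlap. It fell by 0.56 (SE 0.08, limma adjusted p = 6.8e-04) and passed in all 19 alternatives. The other 14 did not pass, and the median of the list was 0.00. At an unadjusted p under 0.05 there were 5 genes of the list, 3 higher and 2 lower. Of all genes 6.91% passed in limma and 21.3% had an unadjusted p under 0.05. Among 14 genes of the ductular reaction and hepatocyte injury 0 passed in limma and 2 had an unadjusted p under 0.05, Lgr5, a Wnt-dependent receptor (0.42, limma adjusted p = 0.092, and 0.049 among genes above the median level), and Mmp7, a matrix protease of injured ducts (0.26, limma adjusted p = 0.13, and 0.036 without hApoF 11).

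Genes of proteins that bind or build on keratin filaments did not pass either. Of 13 keratin partner and desmosome genes 0 passed in limma and 1 had an unadjusted p under 0.05, Fam83h, which organises keratin filaments (-0.23, limma adjusted p = 0.070; 0.042 without GFP 4 and 0.027 among genes above the median level). Of 10 genes of Mallory-Denk bodies, the keratin aggregates of injured hepatocytes, 0 passed in limma, also at an unadjusted p under 0.05. The lowest p in that list was that of Tgm2, a cross-linking transglutaminase (-0.25, limma adjusted p = 0.28, and 0.033 without hApoF 7). Of 30 other claudin genes 1 rose, Cldn12 (0.31, SE 0.07, limma adjusted p = 0.014), with 7.80, 8.05 and 8.10 in hApoF livers against 7.59, 7.71 and 7.82 in GFP livers, and 0 fell. Of 7 osteopontin receptor genes 0 passed in limma and 4 had an unadjusted p under 0.05, the lowest being that of Itgb5 (-0.22, limma adjusted p = 0.053), whose groups did not overlap and which passed in 4 of 19 alternatives, among them without GFP 4 (adjusted p = 0.044). Itgb3, next in that list (0.26, limma adjusted p = 0.094), passed in 3, among them without GFP 5 (adjusted p = 0.042). Over all genes 6.91% passed in limma, 21.3% had an unadjusted p under 0.05 and 4.98% had groups that did not overlap.

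Among 8 intermediate filament genes other than keratins 2 fell, both of nuclear lamins. Over all genes 6.91% passed in limma, 2.11% higher and 4.8% lower. Lmna had values of 5.91, 6.17 and 6.55 in hApoF livers, against 6.44, 6.71 and 6.83 in GFP livers, and fell by 0.45 (limma adjusted p = 0.021). Lmnb1 had values of 5.91, 6.28 and 6.38 in hApoF livers, against 6.31, 6.73 and 6.92 in GFP livers, and also fell by 0.45 (limma adjusted p = 0.028). The groups overlapped for both genes. Lmna lost its call without GFP 2, GFP 3 or GFP 6 (adjusted p up to 0.055), and Lmnb1 without any of these or hApoF 9 (up to 0.071).

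Markers of other cell types differed in part. Of 7 mesothelial markers 1 rose, Gpm6a, a membrane glycoprotein (0.49, limma adjusted p = 0.0049), and the list mean was 4.63 to 4.83 on hApoF arrays and 4.40 to 4.65 on GFP arrays. Of 12 macrophage markers 3 rose, Ccr2 (0.46, limma adjusted p = 0.0063), Clec4f (1.26) and Vsig4 (1.38), with list means of 6.52 to 7.26 in hApoF livers and 6.11 to 7.09 in GFP livers. Of 8 endothelial markers 2 rose, Kdr (0.44, limma adjusted p = 0.0089) and Tek (0.41), with list means of 7.96 to 8.33 in hApoF livers and 7.67 to 8.11 in GFP livers. Of 10 stellate cell and fibroblast markers 2 rose, Dcn (0.26, limma adjusted p = 0.034) and Pdgfrb (0.28), calls kept in 9 of 19 alternatives each. Without 1 array their adjusted p reached 0.085 for Dcn and 0.095 for Pdgfrb, both without GFP 2, and that of Vsig4 reached 0.088, also without GFP 2. The stellate cell and fibroblast list means were 7.14 to 7.48 in hApoF livers and 6.95 to 7.30 in GFP livers. At an unadjusted p under 0.05 there were 2 mesothelial, 4 macrophage, 5 endothelial and 6 stellate cell and fibroblast markers, all higher. The list medians were 0.13, 0.12, 0.29 and 0.26 in that order, against 0.03 for all genes. Of all genes 6.91% passed in limma and 21.3% had an unadjusted p under 0.05. The part of these cells in the members' differences was not tested.

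Of 9 hepatocyte markers 0 passed in limma and 3 had an unadjusted p under 0.05, with a median of 0.07. Fgb (0.19) and Cps1 (0.17) of that list had groups that did not overlap. Each passed in 2 of 19 alternatives. These were the fit with trend and robust settings (limma adjusted p = 0.012 and 0.026) and that among genes above the median level (0.026 and 0.042). With arrays centred on their medians the limma adjusted p were 0.17 and 0.23, and after a further quantile normalization 0.16 and 0.25. Over all genes 6.91% passed, 21.3% had an unadjusted p under 0.05 and 4.98% had groups that did not overlap. Of 8 lymphocyte markers 0 passed in limma and 3 had an unadjusted p under 0.05, 2 higher and 1 lower. The lowest p were those of Cd79a (0.27, limma adjusted p = 0.063, and 0.023 without GFP 4) and Cd4 (-0.25, limma adjusted p = 0.085). Markers of gallbladder and intestinal epithelium (7) and of pancreatic acinar cells (5) gave 0 calls in limma, with 1 and 0 genes at an unadjusted p under 0.05. The lowest p of the acinar list were those of Cel (0.17, limma adjusted p = 0.39) and Amy2b (-0.33, limma adjusted p = 0.40). Leaving out 1 array gave -0.54 to -0.24 for Amy2b, with a call without hApoF 12 (limma adjusted p = 0.026) and none in the other 11 omissions. Their mean levels were 4.02 to 4.33 (epithelium) and 4.14 to 4.35 (acinar) on hApoF arrays, and 4.14 to 4.47 (epithelium) and 4.11 to 4.43 (acinar) on GFP arrays.

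**Figure D4:**
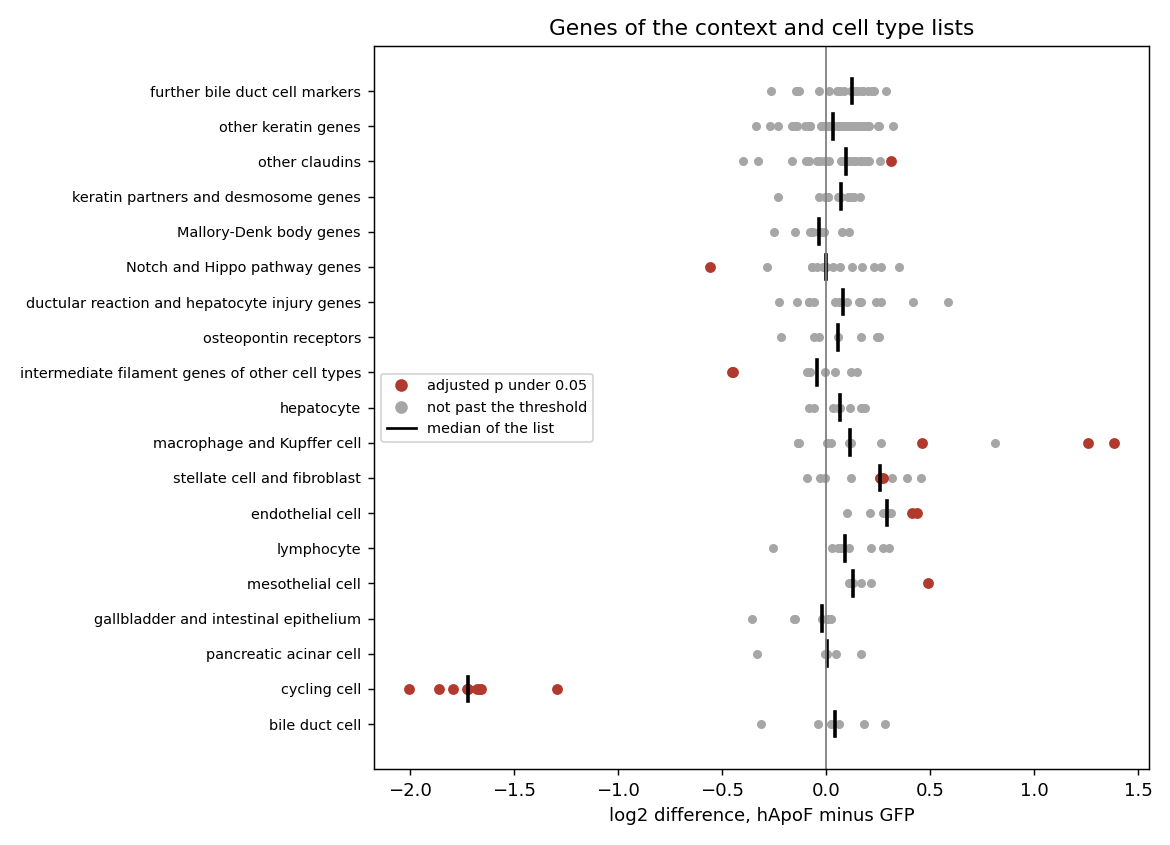
Log2 difference, hApoF minus GFP (horizontal), of each measured gene of the context and cell type lists (rows), red where it passed the adjusted threshold, with the list's median as a black bar. The median is 0.12 for the further bile duct markers and 0.04 for the bile duct cell row, where that of all genes was 0.03. The cycling cell row lies between -2.004 and -1.29.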

How the data were processed

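RNA of 12 liver samples (6 hApoF, 6 GFP) was measured on 12 arrays. The deposited values are log2 values per probe set, made by the authors with oligo and RMA (background correction, quantile normalization and probe set summary), per the submitters' processing notes. Versions and parameters of these tools: not given in the sources used here. Depth has no meaning for arrays, and their number limits the precision.

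Values were used as deposited. Of 35145 probe sets, 23521 carried 1 gene symbol in the platform annotation, which can be old, and 1082 genes had more than 1 of them. With limma 3.58.1 and R 4.3.3, hApoF was compared with GFP (lmFit, eBayes, no covariates) over 22180 genes, and again over all single-gene probe sets, with Benjamini-Hochberg adjustment and a threshold of 0.05. Tests are two-sided. Exact permutation tests used scipy 1.17.1, tables pandas 2.3.3 and plots matplotlib 3.10.9. The fit was tested on simulated data with known answers.

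The members and the 19 lists were chosen with earlier results of these data known. Named are all members, up to 4 passing genes per list with the lowest p (at most 2 where none passed), and the 3 genes most like a member that passed. Groups came from the virus in the labels, which give no batch. The 19 alternatives covered scaling, variance model, dim genes, probe set choice and left-out arrays. Gene positions and sequences are from RefSeq (GRCm38.p6). Promoter entries for Krt8, Krt18, Krt23, Krt7, Epcam, Spp1, Pkhd1 and Cldn7 matched by symbol, and those of Krt19 and Sox9 did not.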

Additional observations from a re-analysis of the deposited data

How the results depend on the processing

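The Krt23 call held in each of the 18 alternatives that kept the gene (log2 difference -1.21 to -1.04), and Krt8 passed in none of 19 (adjusted p 0.052 to 0.34). The number of higher members, 0 in the reported fit, was 1 among genes above the median level and 1 without GFP 4 and hApoF 12 together, and 0 to 1 when 1 array was left out. The number of lower members, 1 as reported, was 2 with arrays centred on their medians and 2 with trend and robust settings, and 1 to 2 when 1 array was left out. Among genes above the median level, where Krt23 was left out, the 1 higher member was Krt18 and the 1 lower member was Sox9. Of the 10 member probe sets 1 passed as reported, 2 with centred arrays and 3 without GFP 4 and hApoF 12 together. Leaving out 1 array gave 1 to 3. Where only probe sets above the median level were tested, 2 of the members' probe sets that were kept passed. Over the context lists other than olfactory receptors 4 genes passed, against 7 with centred arrays, 7 after a further quantile normalization, 7 with trend and robust settings, 9 among genes above the median level, 9 without GFP 4 and hApoF 12 together, and 2 to 8 when 1 array was left out. The other cell type lists gave 14 to 23 calls when 1 array was left out. All genes called were 1015 to 1988 when 1 array was left out, the lowest without GFP 3. Differences that changed sign were those of Krt19 (0.00036 without hApoF 12, and 0.0268 when GFP 4 and hApoF 12 were both left out) and of Cldn7 (-0.00609 with centred arrays, -0.0324 after quantile normalization, and -0.0319 with both of these arrays left out). Leaving out 1 array gave -0.0711 to 0.00036 for Krt19 and -0.0357 to 0.0713 for Cldn7. The cause of these changes was not tested. No paired analysis was possible because the groups share no replicate number. Dim signal limits Krt23, Krt19, Epcam and Cldn7, and the alternative restricted to genes above the median level left out Krt7 with these 4.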
